A study of Homo sapiens with 2 samples.

Results

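The semaphorin genes and the plexin and neuropilin genes that encode their receptors were examined in the open chromatin of 2 human cell lines. The group was a fixed list of 30 gene symbols, all found in a RefSeq table with 19974 coding genes outside chromosome Y. It comprised 19 ligand genes (the SEMA genes), 9 receptor genes (7 plexins and 2 neuropilins) and 2 genes for plexin domain containing proteins. The list does not hold every gene of these families, and SEMA3C, PLXNA3 and PLXNB3 are not in it. ATAC-seq, in which the Tn5 transposase cuts accessible DNA and attaches sequencing adapters, was run on 50000 cells per reaction with a transposase purified by the submitters. J76, described in the labels as human acute T-lymphoblastic leukemia cells, is a Jurkat subline that lacks the T cell receptor chains. The other line, which the sample label calls T293 and the protocol 293T, is an adherent embryonic kidney line that carries the SV40 large T antigen. Both were sampled in logarithmic growth, with no treatment named. Each line gave 1 library and 1 deposited peak list, so differences between the lines were not checked by replicates and are given without p-values.

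Semaphorins are guidance proteins that tell growing axons, vessels and migrating cells where to go. Class 3 members are secreted and mostly signal through a neuropilin joined to a class A plexin, whereas members of classes 4 to 6 span the membrane, class 7 is anchored by a lipid, and these bind plexins directly. Plexins act through small GTPases on the cytoskeleton and integrins, and several semaphorins, SEMA4A and SEMA4D among them, are also known on lymphocytes. Plexin domain containing proteins carry a related domain but are known as receptors of a secreted serpin, not of semaphorins.

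The lists held 58730 J76 and 84951 293T peaks on the chromosomes used, and give no read counts, so depth is unknown and a missing peak does not show closed chromatin. The printed fold is the authors' linear enrichment over background at the summit and was read within a list only. All 8 T cell markers had a gene-end peak in J76 and 0 of 8 in 293T, and all 8 epithelial and kidney markers the reverse. The marker lists were chosen with earlier results of these data known, so this split cannot check the labels. KRT8 and KRT18 overlap at their ends and had the same 293T fold (6.25), so 1 peak may count for both. Within 1 kb of a RefSeq promoter start, CD28, LAT, LCK and ZAP70 had a peak only in J76, and GDNF, TJP1 and WT1 only in 293T. The epithelial and kidney marker CAV1 had one in each line there (fold 7.74 for J76, 6.0 for 293T), and CD2 and KRT8 had none. Of the B cell, myeloid and endothelial markers, 4 genes each, J76 had a gene-end peak at 0, and 293T at 0, 2 and 1.

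A peak lying within 1 kb of the first or last base of a gene is called a gene-end peak here. J76 had one at 21 of the 30 genes (64.6% of all coding genes) and 293T at 25 (69.7%). Both lines had one at 19 genes (60.7% of all), J76 alone at 2 (3.94%), 293T alone at 6 (9.09%), and 3 genes had none (26.3%). Of the 19 semaphorins, 11 had a peak in both lines. Those with a peak in J76 alone were SEMA3D and SEMA4A, those in 293T alone were SEMA3E, SEMA4B, SEMA6A and SEMA6D, and SEMA3A and SEMA6B had none. Of the 9 receptors, 7 had one in both, PLXNB2 had one in 293T alone and PLXNA4 had none. Of the plexin domain containing genes, PLXDC1 had one in both and PLXDC2 in 293T only. With windows of 2.5 kb SEMA4A, SEMA4B, SEMA6A and PLXNB2 had one in both lines, and with the summit required inside the window SEMA4C, SEMA5A and PLXND1 had one in J76 alone.

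Among genes with a gene-end peak, the median of the highest fold was 6.86 in J76 (21 genes) and 6.95 in 293T (25 genes), against 8.45 and 7.79 over all genes with such a peak. Receptors ranged from 5.30 to 7.41 in J76 and from 4.67 to 7.80 in 293T, while semaphorins ran from 4.09 to 13.3 and from 3.53 to 13.9. The strongest peak at an end or listed start had a median width of 724 bp in J76 and 1016 bp in 293T. Of those with a listed start to measure from, 17 of 22 J76 summits and 13 of 24 293T summits lay within 250 bp of one. Widths and distances are not given over all coding genes, so whether they are particular to this group was not tested. Another coding gene ended within 2 kb of SEMA3B, SEMA3F, SEMA4B, SEMA4C, SEMA4G, SEMA6C, PLXNB1 and PLXNB2, 8 genes in all, where a peak may belong to either gene.

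**Figure D1:**
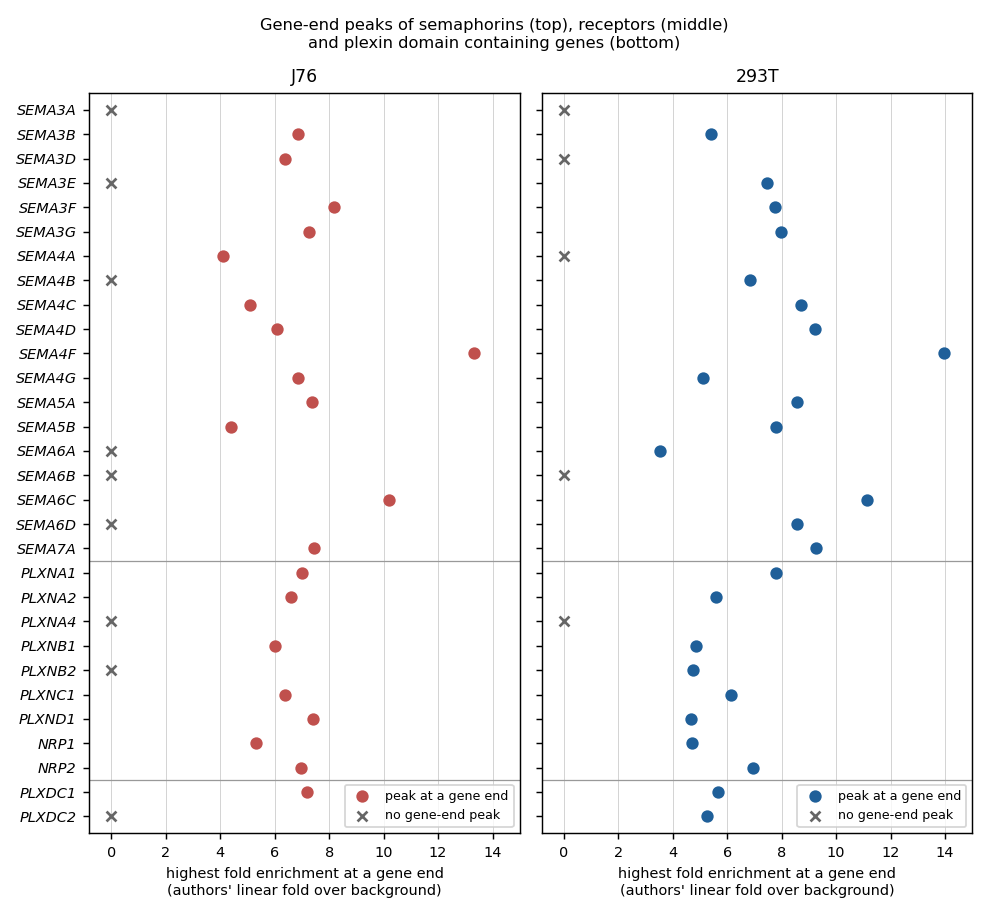
Highest fold enrichment of a gene-end peak (x axis, the authors' linear fold over background) for each of the 30 genes (y axis) in J76 (left) and 293T (right), 1 library each; crosses mark genes with no such peak and grey lines part semaphorins, receptors and plexin domain containing genes. SEMA4F stands highest in both lines, at 13.3 and 13.9, and 9 genes in J76 and 5 in 293T have no gene-end peak.

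Because several of these genes have more than 1 annotated start, peaks were also set against the starts of RefSeq promoters (GRCh38.p14), which were listed for 25 of the 30 genes, 45 promoters in all. SEMA3A, SEMA6A, SEMA6B, NRP1 and PLXDC1 had no entry. Both lines had a peak within 1 kb of a listed start at 20 of the 25 genes (63.5% of the 15812 coding genes with a listed start). At SEMA3E and PLXDC2 this was so in 293T alone (8.27% of all), at 0 genes in J76 alone (3.35%), and SEMA4A, SEMA4D and PLXNB2 had no such peak (24.9%). Of the 8 genes with a gene-end peak in 1 line alone, 3 (SEMA3D, SEMA4B and SEMA6D) had a peak at a listed start in both.

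The promoters that the comparison turns on are printed below, each from 250 bases before to 50 after the start, 5′ to 3′ on the strand of the gene, from RefSeq GRCh38.p14. SEMA4F is shown as the strongest of the group in both lines, SEMA4B for an outer start with a peak in 293T alone and an inner start with one in both, SEMA5A for a start covered in J76 alone, SEMA3E and PLXDC2 as 293T-only starts, and the inner start of PLXNC1 as a J76-only start. Capitals mark matches, on either strand, to 8 short motifs. These were the CCAAT box, the GC box core GGGCGG, the ETS core CCGGAA, the RUNX core TGTGGT, the TEAD core GGAATG, the AP-1 site TGANTCA, the GATA core GATAA and the NRF1 palindrome. No motif holds another, and a match is only a match of letters.
SEMA4F, chr2:74653997-74654296, plus strand: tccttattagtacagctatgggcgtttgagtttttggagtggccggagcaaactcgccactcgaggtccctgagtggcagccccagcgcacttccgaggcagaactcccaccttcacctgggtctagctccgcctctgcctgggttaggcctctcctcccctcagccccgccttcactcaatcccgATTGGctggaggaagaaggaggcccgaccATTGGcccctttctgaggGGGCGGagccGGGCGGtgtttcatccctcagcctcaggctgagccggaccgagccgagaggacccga
SEMA4B outer start, chr15:90184670-90184969, plus strand: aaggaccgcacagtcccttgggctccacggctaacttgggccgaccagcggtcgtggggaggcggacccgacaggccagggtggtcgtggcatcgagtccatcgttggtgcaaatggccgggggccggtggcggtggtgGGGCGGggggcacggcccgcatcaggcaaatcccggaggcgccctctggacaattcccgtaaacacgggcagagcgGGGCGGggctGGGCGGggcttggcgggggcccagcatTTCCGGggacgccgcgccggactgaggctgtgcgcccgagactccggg
SEMA4B inner start, chr15:90201080-90201379, plus strand: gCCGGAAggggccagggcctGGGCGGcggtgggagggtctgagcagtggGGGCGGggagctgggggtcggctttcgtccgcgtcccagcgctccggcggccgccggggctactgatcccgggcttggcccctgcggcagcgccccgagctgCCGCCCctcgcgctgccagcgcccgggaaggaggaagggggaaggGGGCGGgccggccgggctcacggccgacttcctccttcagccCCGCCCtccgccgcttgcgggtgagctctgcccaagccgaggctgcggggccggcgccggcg
SEMA5A, chr5:9546026-9546325, minus strand: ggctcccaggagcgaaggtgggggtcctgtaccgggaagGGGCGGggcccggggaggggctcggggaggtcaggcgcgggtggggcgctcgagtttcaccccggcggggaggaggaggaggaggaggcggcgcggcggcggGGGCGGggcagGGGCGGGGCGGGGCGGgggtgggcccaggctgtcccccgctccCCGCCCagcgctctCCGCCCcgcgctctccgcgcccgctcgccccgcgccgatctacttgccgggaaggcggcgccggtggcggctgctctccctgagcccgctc
SEMA3E outer start, chr7:83649090-83649389, minus strand: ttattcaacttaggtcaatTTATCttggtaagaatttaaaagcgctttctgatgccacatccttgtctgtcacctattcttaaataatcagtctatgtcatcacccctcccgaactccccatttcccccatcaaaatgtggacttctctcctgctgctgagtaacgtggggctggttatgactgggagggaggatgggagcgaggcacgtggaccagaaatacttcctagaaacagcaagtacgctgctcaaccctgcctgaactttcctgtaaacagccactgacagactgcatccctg
PLXDC2, chr10:19816182-19816481, plus strand: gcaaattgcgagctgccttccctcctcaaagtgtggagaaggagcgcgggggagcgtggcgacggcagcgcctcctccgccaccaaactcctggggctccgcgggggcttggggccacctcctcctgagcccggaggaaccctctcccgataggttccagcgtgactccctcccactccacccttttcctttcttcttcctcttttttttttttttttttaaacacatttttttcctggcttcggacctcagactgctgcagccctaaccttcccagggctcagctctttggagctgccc
PLXNC1 inner start, chr12:94262369-94262668, plus strand: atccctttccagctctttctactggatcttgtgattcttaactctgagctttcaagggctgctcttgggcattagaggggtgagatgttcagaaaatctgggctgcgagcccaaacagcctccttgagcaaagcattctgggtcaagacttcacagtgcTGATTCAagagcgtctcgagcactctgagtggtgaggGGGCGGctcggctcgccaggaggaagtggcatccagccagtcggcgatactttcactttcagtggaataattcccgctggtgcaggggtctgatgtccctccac

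Base composition was compared between promoter windows with and without a peak. Of the 45 promoter windows of 300 bases, 23 were overlapped by a peak in both lists (51.1%, against 54.2% of all coding promoters). A peak in the J76 list alone overlapped 4 (8.89%, against 3.37%) and in the 293T list alone 6 (13.3%, against 9.54%). The other 12 had none (26.7%, against 32.9%). Some windows of 1 gene overlap each other. The median GC content was 71.7% in the 23 and 59.0% in the 12, with a median of 31 and 8 CpG dinucleotides. The 4 windows with a J76 peak alone had medians of 58.6% and 8 CpG, no higher than those with none. Their range was wide, 53.7 to 81.0% and 6 to 39 CpG, with SEMA5A highest in both. The 6 with a 293T peak alone had medians of 61.5% and 22 CpG, and ran from 47.3 to 74.7% and from 6 to 33 CpG. Over all coding promoters the medians were 67.0% and 28 CpG with a peak in both lines, 59.7% and 11 in J76 alone, 62.7% and 19 in 293T alone, and 52.0% and 5 with none. Some windows with a peak were poor in CpG: the outer start of SEMA3E (293T alone) had 47.3% GC and 6 CpG, the inner start of PLXNC1 (J76 alone) 53.7% and 9, and the outer start of SEMA5B (both) 42.0% and 7.

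The GC box core was the commonest motif, in 28 of the 45 promoters (62.2%) of 21 genes, and in 56.3% of all 22132 coding promoters. The CCAAT box was in 10 (22.2%, against 34.6%), among them SEMA4F with 2 matches. The ETS core was in 7 (15.6%, against 21.2%), including both the outer and the inner start of SEMA4B printed above. The RUNX, TEAD and GATA letters were each in 6 (13.3%), against 11.3%, 12.2% and 18.6%. The AP-1 and NRF1 letters were each in 1 (2.22%, against 6.15% and 1.5%), at the inner start of PLXNC1 and at PLXNA1. Shares of so few promoters carry wide counting error.

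Among the class 3 semaphorins, SEMA3F, which signals through neuropilin-2, SEMA3B and SEMA3G had a peak on the start in both lines. At SEMA3F the J76 peak (fold 8.19) had its summit 49 bp before the outer start and the 293T peak (7.76) 43 bp before it. SEMA3B had folds of 6.86 and 5.39 at its outer start, a site that GNAI2 and the noncoding LINC03143 share, and a further peak in both lines at an inner start (5.17 and 4.40). SEMA3G had 7.25 in J76 and 7.96 in 293T. The same starts were thus marked in both lines at each of these 3 genes.

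The other class 3 genes of the list, SEMA3E, SEMA3A and SEMA3D, lie in a row on chromosome 7, and here the lines differed. SEMA3E, which binds PLXND1 without a neuropilin, had a 293T peak of fold 7.46 (83648335 to 83649310, chromosome 7) with its summit 13 bp before the outer start printed above, and no J76 peak within 1 kb of either end. SEMA3A, the best known repellent of axons, had no gene-end peak in either line. SEMA3D had a J76-only peak at its outer end (fold 6.37, 85250210 to 85250492), while at its listed start, well inside the gene, both lines had a peak, of fold 10.5 in J76 and 6.92 in 293T. In the list of gene ends SEMA3D therefore counts as J76 only, and in the list of starts as both.

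Class 4 held the strongest peak of the group. SEMA4F, a transmembrane semaphorin, had a fold of 13.3 in J76 (chromosome 2, 74653804 to 74654708) and 13.9 in 293T (74653591 to 74654907), with summits 86 and 22 bp before the start. Within each list this stood at percentiles 98.8 and 99.3 of the genes with a gene-end peak. SEMA4G had 6.85 in J76 and 5.11 in 293T, both on its outer start. SEMA4C, a ligand of PLXNB2, had 5.08 in J76 and 4.96 in 293T from peaks that covered its own start. The J76 summit lay 1 bp before that start and the 293T summit 1415 bp after it. The coding gene LOC124908044 also has an end within 1 kb of both peaks. The highest 293T value of SEMA4C, 8.72, came from a peak at its other end that is also at the end of ANKRD39.

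SEMA4D, also called CD100 and carried by resting T cells, had a peak on its outer end in both lines, with folds of 6.09 in J76 (chromosome 9, 89497790 to 89498551) and 9.21 in 293T (89497811 to 89498366). A weaker second peak lay just inside (2.88 and 3.30). The listed start of SEMA4D lies further inside the gene and had no peak within 1 kb in either line. SEMA4A, known as a costimulatory ligand of T cells, had none at any of its 4 listed starts in either line. Its J76-only call rested on a weak peak beyond the 3′ end (fold 4.09, −log10 q 8.12, summit 768 bp away), which the smaller window of 500 bp did not reach.

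SEMA4B had peaks on different sets of starts in the lines. In 293T a broad peak covered the outer start (fold 6.85, chromosome 15, 90184081 to 90185523), where J76 had none. In J76 a weak peak (3.72, 90191825 to 90192373) lay on a middle start that had none in 293T. Both had a peak on the inner start, of fold 7.86 in J76 and 8.97 in 293T, with summits 58 and 59 bp before it. The nearby gene CIB1 has an end within 2 kb of the far end of SEMA4B, so that end is not assigned to a single gene.

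SEMA5A and SEMA5B, transmembrane semaphorins with thrombospondin repeats, had gene-end peaks in both lines, but those of SEMA5A did not overlap. The J76 peak (fold 7.38, chromosome 5, 9545872 to 9546564) covered the start, with its summit 104 bp before it. The 293T peak (8.58, 9544437 to 9545201) lay inside the gene, with its summit 1422 bp after the start, and no 293T peak touched the promoter printed above. With windows of 500 bp SEMA5A had a gene-end peak in J76 alone. The noncoding gene SNHG18 also has an end there. SEMA5B had 3 separate weak J76 peaks (4.38, 3.56 and 3.89) where 293T had 1 broad peak (7.79, 123027360 to 123028780 on chromosome 3).

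In class 6, SEMA6C had strong peaks on its start in both lines (10.2 and 11.1, summits 106 and 114 bp before it), and no line-only distal peak near it in either list. SEMA6A, a ligand of class A plexins, had 293T peaks at its higher-numbered end and none in J76 within 1 kb. The strongest had a fold of 3.53 (chromosome 5, 116574494 to 116575191), at percentile 3.43 of 293T genes with a gene-end peak. A further 293T peak there (2.35, 116575584 to 116576474) overlapped a J76 peak that lay outside the 1 kb window. SEMA6D, a ligand of PLXNA1, had a 293T-only peak at its outer start (8.58, chromosome 15, 47183954 to 47185191), while a start in the far part of the gene had a peak in both lines (3.51 in J76, with a −log10 q of 3.79, and 5.84 in 293T). SEMA6B had none at either end in either line. SEMA7A, which binds PLXNC1 and beta-1 integrin, had 7.45 in J76 and 9.26 in 293T, with summits 67 bp after and 17 bp before the outer start.

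**Figure D2:**
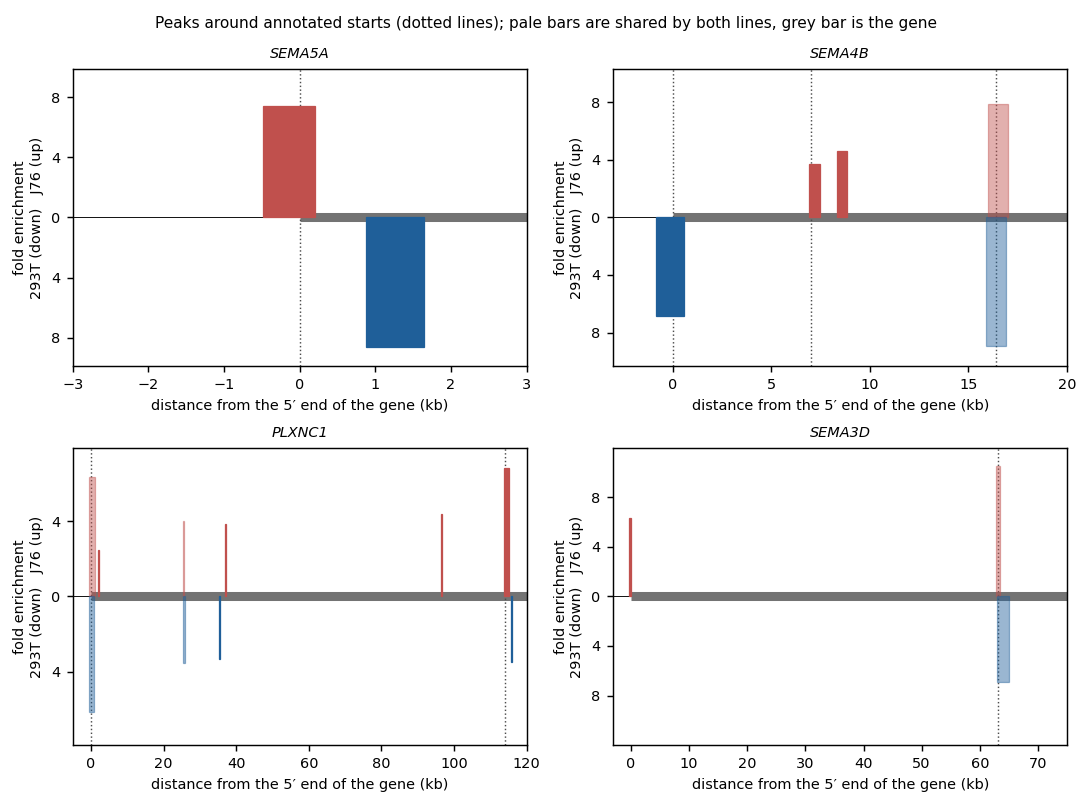
Peaks near the 5′ end of SEMA5A, SEMA4B, PLXNC1 and SEMA3D, drawn by distance from that end in kb (x axis) with J76 folds upward and 293T folds downward (y axis, the authors' linear fold); dotted lines are listed starts, the grey bar is the gene, and pale bars overlap a peak of the other line. The J76 and 293T peaks of SEMA5A lie side by side, the outer start of SEMA4B has a peak in 293T alone, and the inner start of PLXNC1 in J76 alone.

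Of the 9 receptor genes, 7 had a gene-end peak in both lines. PLXNA1, which joins neuropilin-1 in the receptor of class 3 semaphorins, had 7.02 in J76 and 7.80 in 293T, with summits 473 and 470 bp before the start. PLXND1, the receptor of SEMA3E and of vessel patterning, had 7.41 in J76 on the start (summit 146 bp before it) and 4.67 in 293T, where a peak of 129605288 to 129607304 on chromosome 3 covered the start with its summit 1010 bp after it. NRP2 had 6.97 and 6.95, with summits 73 and 100 bp before the start. NRP1, a receptor for class 3 semaphorins and a co-receptor for vascular growth factors, had 5.30 and 4.72 at its higher-numbered end. Both lists thus held a gene-end peak at each of these 4 genes.

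PLXNB1, the receptor of SEMA4D, had 6.01 in J76 and 4.86 in 293T on its inner start, and J76 had a weak peak on the outer start as well (2.67). PLXNA2 had 5.60 and 5.50 on its start, and a separate peak at its 3′ end in both lines (6.60 and 5.61) whose summits differed by 1 bp. PLXNA4 had no peak at its outer ends but a shared peak near its listed start inside the gene, of fold 4.60 in J76 and 6.27 in 293T, with summits 991 and 935 bp before that start. In 293T a weak further peak lay on the start itself (3.23, summit 13 bp after it). PLXNB2 had a 293T-only peak at its outer end (4.73, chromosome 22, 50307124 to 50307739), with DENND6B ending within 2 kb of the gene.

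PLXNC1, the receptor of SEMA7A, had a peak on its outer start in both lists, of fold 6.36 for J76 and 6.15 for 293T. In J76 a broad peak also covered the inner start printed above (6.86, chromosome 12, 94262424 to 94263717, summit 23 bp before it), which in 293T had none. This J76 peak is not seen when gene ends alone are counted. PLXDC2 had a 293T-only peak on its start (5.26, chromosome 10, 19815484 to 19817335), and PLXDC1 had 7.19 and 5.65, at an end shared with transfer RNA genes.

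Distal peaks were those with a summit over 1 kb from any coding gene end. A distal peak was line-only if it overlapped no peak of the other line, and was given to a gene if its summit lay within 50 kb of either end. Around the 30 genes lay 56 distal peaks of J76 alone and 77 of 293T alone, each counted once, so J76 supplied 42.1% of them (95% Wilson interval 34.1 to 50.6). Of the line-only distal peaks within 50 kb of any coding gene, 14480 of J76 and 25035 of 293T, J76 supplied 36.6%, a value inside that interval. Summed over genes, so that a peak near several counts for each, the J76 share was 42.5% for the 30 genes and 39.5% for all coding genes. Near semaphorins the distinct peaks numbered 32 and 54 (37.2%, 27.7 to 47.8), and near receptors 22 and 19 (53.7%, 38.7 to 67.9). The intervals cover counting error only, treat peaks of 1 gene as independent, and overlap between ligands and receptors. With equal numbers of peaks taken from the 2 lists the order near the 30 genes turned, to 59 and 50. For the receptors it turned with 100 kb windows (35 J76-only and 42 293T-only) and with the whole gene body included (28 and 43). The counts over all coding genes were not made with these settings, so whether the turns are particular to this group was not tested.

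By gene, 22 of the 30 had at least 1 J76-only distal peak (68.8% of all coding genes) and 26 at least 1 of 293T only (76.3%). The J76-only peaks outnumbered the others at 10 genes (30.5% of all), were fewer at 15 (49%) and equal at 5 (20.5%). The windows around the ends overlap at short genes, so long genes were searched over more DNA. Genes of like length were not compared, here or for the shares of all genes given below for distal peaks. Semaphorins had 4 with more J76-only and 11 with more 293T-only peaks, and receptors 6 and 3. The receptors with more J76-only peaks were PLXNC1 (5 and 2), PLXNA4 (4 and 1), PLXNB1 (3 and 0), NRP2 (3 and 1), PLXNA1 (3 and 2) and PLXND1 (2 and 1). Only NRP1 (1 and 5), PLXNA2 (1 and 6) and PLXNB2 (0 and 1) of the receptors had more 293T-only peaks. The semaphorins with more J76-only peaks were SEMA4D (8 and 0), SEMA3G (3 and 1), SEMA7A (2 and 0) and SEMA3B (2 and 1), and SEMA3F, SEMA4C and SEMA4G had 1 of each. Most of the differences are of a few peaks. Distal peaks were set by the distance of their summit from gene ends, and gene-end or start peaks by their edge. Listed starts inside a gene were not left out of the distal counts. Counted as both kinds were 3 J76-only distal peaks (at SEMA4B, PLXNA1 and PLXNC1) and 3 of 293T only (at SEMA3E, SEMA5A and SEMA6A). The SEMA4B and PLXNC1 peaks lay on listed starts inside the gene, with summits 271 bp after and 23 bp before them. Without the peaks counted as both kinds the totals were 53 and 74. PLXNA1 then had 2 and 2, SEMA5A 0 and 0, SEMA3E 0 and 3 and SEMA6A 1 and 6. SEMA4B and PLXNC1 each had 1 J76-only peak fewer, and PLXNA1 no longer had more J76-only peaks.

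**Figure D3:**
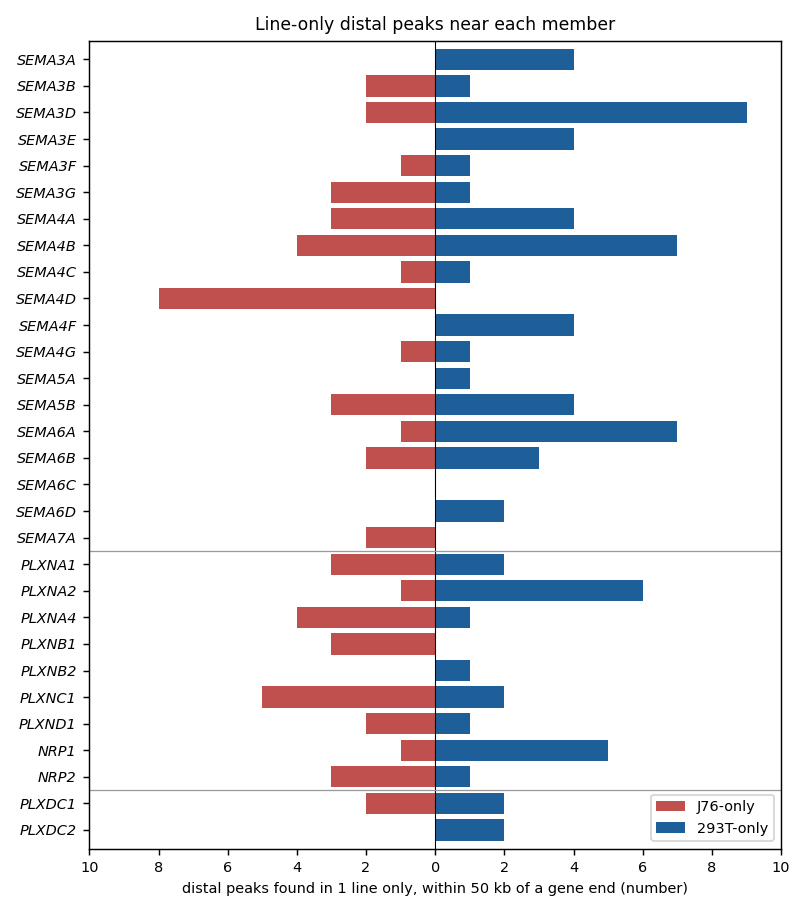
Number of J76-only (bars to the left) and 293T-only (bars to the right) distal peaks with a summit within 50 kb of either end (x axis) for each gene (y axis), 1 library per line; grey lines part semaphorins, receptors and plexin domain containing genes. SEMA4D has 8 J76-only and 0 293T-only peaks, and SEMA3D 2 and 9.

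SEMA4D had the largest difference of the group toward J76, 8 J76-only and 0 293T-only distal peaks. A difference of 8 or more was found at 0.215% of all genes and a difference of 5 or more at 1.85%. No other gene of the group reached 5. Shorter genes have a smaller searched span, so these shares are not those of genes as long as SEMA4D. Counting the whole gene, J76 had 10 line-only distal peaks inside SEMA4D, with folds of 2.35 to 6.08, and 293T had 0. The strongest J76-only peak lay upstream of the outer end (fold 7.57, chromosome 9, 89522184 to 89522828), followed by peaks inside the gene at 89408650 to 89409158 (6.08) and 89490003 to 89490530 (5.54). The 10 Mb window around the gene held 195 J76 and 188 293T peaks, whereas the gene body held 12 and 1. In the full lists the numbers were 58730 and 84951, so the window too held relatively more J76 peaks.

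SEMA3D had the largest difference toward 293T, 2 J76-only and 9 293T-only distal peaks, and a difference of 7 or more that way was found at 3.93% of all genes. Inside the gene 24 293T-only distal peaks were listed against 1 of J76. Their folds ran from 2.53 to 7.31, the highest at 85070705 to 85071881 on chromosome 7. The neighbours SEMA3E (0 and 4) and SEMA3A (0 and 4) went the same way; SEMA3A had 4 J76-only and 10 293T-only distal peaks inside the gene, and the 293T-only peaks of SEMA3E included 1 of fold 7.13 that lay 28.2 kb before its outer end (83677155 to 83678011). Over the 1.89 Mb from SEMA3E to SEMA3D, 293T had 67 peaks and J76 18, a ratio of 3.72. The 10 Mb windows centred on these genes had ratios of 2.85 to 2.96, so the whole region held more 293T peaks. The full lists also held more of 293T, 84951 peaks against 58730 of J76. The SEMA3D body itself held 26 293T and 3 J76 peaks, a ratio of 8.67.

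PLXNA2, which binds class 6 semaphorins, had 1 J76-only and 6 293T-only distal peaks, and inside the gene 1 and 15. The 15 had folds of 3.16 to 6.50 and were spread along the gene, while its start and its 3′ end had peaks in both lines. The window around it held 298 J76 and 459 293T peaks (ratio 1.54), where the full lists held 58730 and 84951. SEMA6A had 1 and 7, with 293T folds of 2.63 to 4.38, in a window with a ratio of 2.02. A difference of 5 or more toward 293T was found at 9.17% of all genes and a difference of 6 or more at 5.97%; the group had 3 and 2 such genes. SEMA4F and NRP1 each had 4 more 293T-only than J76-only peaks (0 and 4, and 1 and 5), as did SEMA3A and SEMA3E. A difference of 4 or more toward 293T was found at 14.4% of all genes and at 7 of the 30. The counts for the group include the peaks of SEMA3E and SEMA6A that were also gene-end peaks, and the shares of all genes were counted in the same way.

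**Figure D4:**
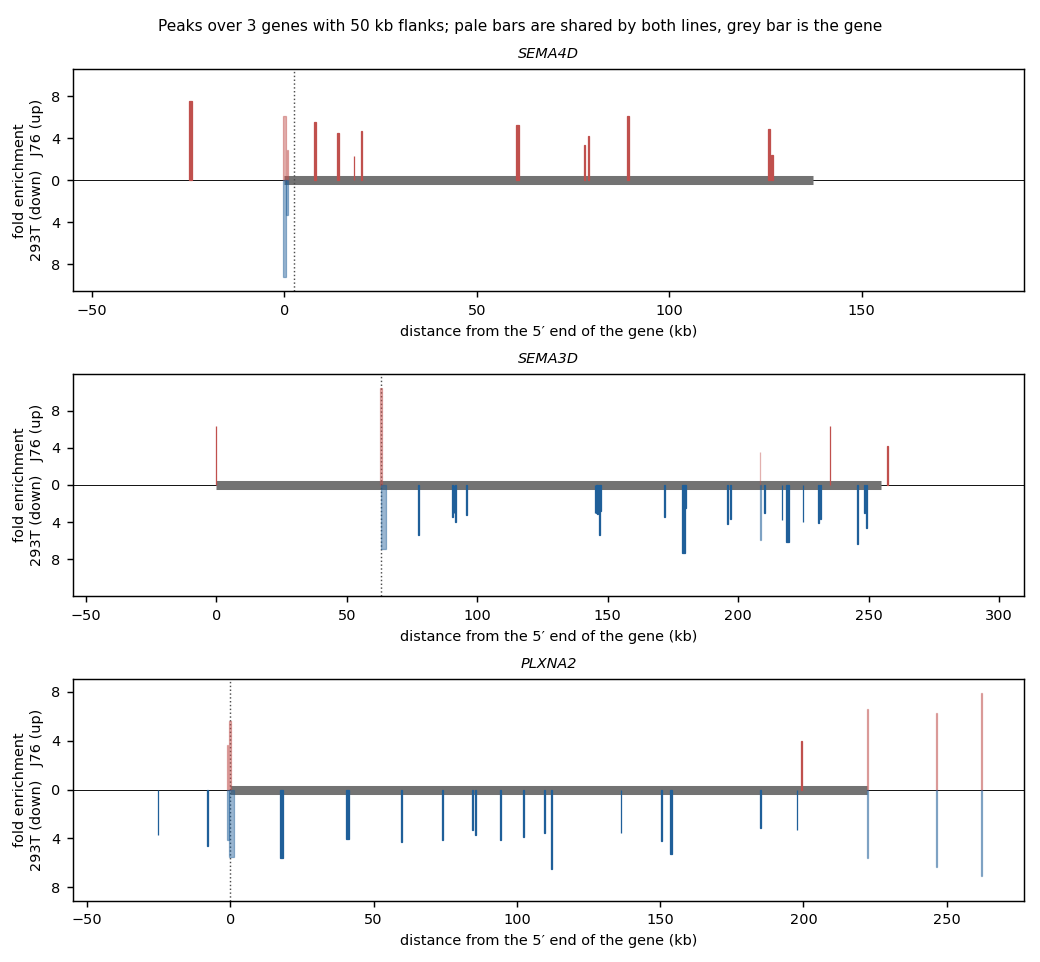
Distal, gene-end and start peaks over SEMA4D, SEMA3D and PLXNA2 with 50 kb on each side, by distance from the 5′ end of the gene in kb (x axis), J76 folds upward and 293T folds downward (y axis, the authors' linear fold); pale bars overlap a peak of the other line, dotted lines are listed starts, and bars of narrow peaks are widened by their outline. J76-only peaks run along SEMA4D, where 293T has peaks at the outer end alone, and 293T-only peaks run along SEMA3D and PLXNA2.

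Many of these genes are long. The median length of the 30 genes was 72.4 kb, against 24.2 kb for all coding genes, and the gene bodies held 77 J76 and 137 293T peaks. The median number of peaks per 100 kb of gene body was 1.93 in J76 and 2.78 in 293T, against 0.746 and 1.77 over all coding genes. These counts include gene-end peaks with a summit inside the gene, and genes of like length were not compared. PLXNA4, a receptor of class 3 and class 6 semaphorins, had 7 J76-only and 12 293T-only distal peaks inside its body, though near its ends it had 4 and 1. Its strongest 293T-only peak (8.55, chromosome 7, 132472408 to 132473030) lay 176 kb inside the gene and its strongest J76-only peak (7.35, 132654979 to 132655946) before its outer end. SEMA6D, the longest gene of the group, had 1 and 5 inside, and SEMA6C and SEMA3F had 0 in both.

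Genes that work with these ligands and receptors were taken as 12 co-receptors and partners and 19 intracellular effectors. Of the partners, 8 had a gene-end peak in both lines, 0 in J76 alone, 2 in 293T alone, and 2 had none. Those in 293T alone were L1CAM, an adhesion molecule that joins neuropilin-1 (4.42), and SERPINF1, the serpin bound by plexin domain containing proteins (5.68). Of those in both, KDR, a receptor for vascular growth factors (11.6), and ERBB2, a kinase that pairs with class B plexins (11.6), had the highest folds in 293T. In J76 the highest were ITGB1, the beta-1 integrin (10.4, and 7.82 in 293T), and ERBB2 (9.57), while KDR had 3.51, from a peak that was not at a listed start. CD72, a receptor of SEMA4D on B cells, had 6.55 and 10.1 at its ends, and a peak at a listed start in J76 alone (7.02).

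Of the effectors 15 had one in both lines, 0 in J76 alone, 2 in 293T alone, and FES and MICAL1 had none. At listed starts MICAL1 had a peak in both lines (5.65 and 6.02) and FES in 293T alone (4.18). DPYSL3 (6.87) and DPYSL4 (5.01), of the collapsin response mediator family that carries semaphorin signals to microtubules, were in 293T only at their ends, though DPYSL3 had a peak at a listed start in both. RND1, a GTPase that binds plexins (11.1 in J76 and 12.99 in 293T), and GIPC1, a scaffold that binds neuropilin-1 (9.05 and 11.6), had the highest folds in 293T. In J76 RND1 was followed by MICAL2, an oxidase that acts on actin (10.1), which stood above GIPC1. These stand beside the shares of all coding genes given above, 60.7% in both lines and 9.09% in 293T alone. Distal peaks near the effectors numbered 47 J76-only and 67 293T-only (J76 share 41.2%, 32.6 to 50.4). Near the partners they numbered 21 and 37 (36.2%, 25.1 to 49.1). The J76 share near any coding gene, 36.6%, lay inside both intervals.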

How the data were processed

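ATAC-seq peak lists of J76 and 293T, 1 library per line, were analysed. The submitters' processing notes name Bowtie2 and MACS2, while versions, settings and build were not given in the sources used here. NarrowPeak lists were deposited by the authors, with the fold enrichment, a linear ratio, with p- and q-values as −log10 values, and with an integer score. In 100% of J76 and 99.9965% of 293T peaks the deposited score is the −log10 q multiplied by 10 and rounded down. Depth is unknown, since no counts are given. Positions are read as GRCh38, counted from 1, because 76 of 92 contig names in the J76 list and 61 of 77 in the 293T list begin with KI27, which belong to that build.

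Genes and promoters came from RefSeq tables of GRCh38.p14, without exons. Chromosome Y and contigs were left out (901 and 646 peaks). Peaks were shared if they overlapped by at least 1 bp. Python 3.11.15, pandas 2.3.3 and scipy 1.17.1 were used, and the counting was tested on simulated peaks. The members, the gene lists and the tests were chosen with earlier results of these data known. All 30 genes are accounted for; given in full were members with a gene-end peak in 1 line only, the 3 ligands and 3 receptors with the highest fold among those with one in both, and those with the 5 largest differences in distal peaks, ties included; other values were added after they were seen. Of the other pathway genes, those in 1 line only and the 2 with the highest fold in both are named, with CD72, FES, ITGB1, MICAL1 and MICAL2 added after their values were seen. The alternatives were other q limits, list lengths, windows and definitions of sharing.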

Additional observations from a re-analysis of the deposited data

How the results depend on the processing

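The lists hold no read counts, so how far depth limits a missing peak cannot be measured. No paired analysis was possible because each line has 1 library. At a −log10 q of at least 5, and with lists of equal length, all 30 genes kept their gene-end state. Genes that changed state numbered 2 at a −log10 q of at least 10, 3 with 500 bp windows, 4 with 2.5 kb windows, 3 with the summit inside the window and 8 with the 20000 strongest peaks of each list. With transcription starts only 12 differed, 5 of them for want of an entry. Genes with a gene-end peak in J76 only then numbered 1 at a −log10 q of at least 10, 1 with 2.5 kb windows, 5 with the summit inside the window and 0 with transcription starts only, from 2. Those in 293T only numbered 3 with 2.5 kb windows and 2 with transcription starts only, from 6, and those in neither 6 with the 20000 strongest peaks, from 3.

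Line-only distal peaks near all members, ligands and receptors were 56, 32 and 22 in J76 and 77, 54 and 19 in 293T. Under a −log10 q limit of 10 they were 37, 21 and 13 in J76 and 38, 29 and 8 in 293T. With the 20000 strongest peaks they were 22, 15 and 6 in J76 and 12, 10 and 2 in 293T, so J76 had the larger number. No matching counts over all coding genes were made for the settings of this paragraph. With lists of equal length 293T had 50 near members and 33 near ligands, against 59 and 33 in J76. With 25 kb windows members had 34 and 49 and receptors 11 and 10, J76 first. With 100 kb windows members had 97 and 152, ligands 59 and 102 and receptors 35 and 42. With the whole gene body 293T had 142, 94 and 43. The order of SEMA6A, PLXNA2 and NRP1 turned with the 20000 strongest peaks, where each had 1 more J76-only than 293T-only peak. SEMA4D then had 4 more in J76, from 8, and SEMA3D 1 more in 293T (-1), from -7.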
